A study of Mus musculus with 18 samples.

Results

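The TEAD transcription factors, the VGLL cofactors that bind them and the angiomotins were followed as 9 genes: Tead1, Tead2, Tead3, Tead4, Vgll3, Vgll4, Amot, Amotl1 and Amotl2. They were picked by symbol from the 23238 gene symbols of the count tables, and all 9 were found there. RNA had been sequenced from 18 libraries of cells sorted from the small intestine of adult C57BL/6J mice. Intestinal stromal cells (IntSCs) were sorted by a tdTomato reporter, and lymphatic endothelial cells (LECs) were sorted too. The paper calls these both small intestinal and lacteal LECs, lacteals being the lymphatic vessels at the centre of each villus. Its methods name no step that separates lacteals from other lymphatic vessels of the intestine. WT libraries (6 of IntSCs, 4 of LECs) came from mice labelled PDGFRb+-CreERT2-Tomato+, so the controls carried the Cre recombinase and the reporter too. LATS1/2 KO libraries (5 of IntSCs, 3 of LECs) came from mice that also had floxed Lats1 and Lats2 alleles. The Cre is active after tamoxifen and is driven by the Pdgfrb promoter, so deletion is aimed at fibroblasts, smooth muscle cells and mural cells, and LECs are neighbours of the targeted cells. The labels do not say whether libraries came from single or pooled animals, so p-values measure the spread between libraries, which may be partly technical.

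LATS1 and LATS2 are the kinases at the end of the Hippo cascade. They phosphorylate YAP and TAZ, which then stay in the cytoplasm, whereas unphosphorylated YAP and TAZ enter the nucleus and act through the DNA-binding TEAD proteins. VGLL proteins bind TEADs on a surface that overlaps the YAP site, and VGLL4 is known as a competitor of YAP. Angiomotins are junction and actin-associated scaffolds that hold YAP outside the nucleus and are themselves LATS substrates. AMOTL2 is widely used as a readout of YAP activity, since its gene is a target of YAP and TEAD.

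The members are protein-coding genes on 6 chromosomes. In the RefSeq annotation of GRCm38.p6, the assembly behind mm10, the TEAD genes lie Tead1 at chr7:112679356-112906784, Tead2 at chr7:45215792-45233468, Tead3 at chr17:28331671-28350805 and Tead4 at chr6:128227143-128300813. The VGLL genes lie Vgll3 at chr16:65815189-65866368 and Vgll4 at chr6:114860621-114970007, and the angiomotins Amot at chrX:145446424-145505966, Amotl1 at chr9:14541966-14662974 and Amotl2 at chr9:102717091-102733418. Vgll4 and Amotl1 each overlap 1 long non-coding RNA gene, Gm38876 and Gm34263, and since the counting is not stated to use strand, reads of the overlap cannot be assigned with certainty. The other 7 overlap no annotated gene.

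The promoter windows of the 3 members with the lowest p between KO and WT IntSCs are printed here, each as the 250 bases before a transcription start in the RefSeq annotation of GRCm38.p6. For Vgll3 this start is the first base of the gene given above. For Amotl2 and Amotl1 it lies inside the gene, 713 and 47974 bases downstream of its outermost end. Capitals mark the TEAD core motif, GGAATG, or CATTCC where it lies on the opposite strand. The windows lie at chr9:102717554-102717803 on the plus strand for Amotl2, at chr16:65814939-65815188 on the plus strand for Vgll3, and at chr9:14615001-14615250 on the minus strand for Amotl1.
Amotl2: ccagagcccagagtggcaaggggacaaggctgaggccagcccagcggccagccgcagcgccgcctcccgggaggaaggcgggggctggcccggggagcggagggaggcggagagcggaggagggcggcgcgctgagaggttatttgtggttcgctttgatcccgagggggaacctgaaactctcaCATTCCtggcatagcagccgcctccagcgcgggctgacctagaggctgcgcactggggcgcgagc
Vgll3: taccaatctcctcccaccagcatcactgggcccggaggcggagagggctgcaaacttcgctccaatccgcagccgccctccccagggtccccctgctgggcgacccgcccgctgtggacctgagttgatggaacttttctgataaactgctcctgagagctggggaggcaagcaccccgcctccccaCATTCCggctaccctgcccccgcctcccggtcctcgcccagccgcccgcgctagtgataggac
Amotl1: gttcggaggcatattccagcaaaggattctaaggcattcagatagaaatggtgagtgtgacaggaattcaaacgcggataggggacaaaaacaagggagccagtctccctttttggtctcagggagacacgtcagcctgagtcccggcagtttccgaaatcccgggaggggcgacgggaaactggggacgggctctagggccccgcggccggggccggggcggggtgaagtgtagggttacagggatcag
The Amotl2 window held 1 match, starting at position -65 from that transcription start, and the Vgll3 window held 1 match, at position -63. The Amotl1 window held none. The paper's consensus sequence for TEAD binding is the shorter GGAAT, and that run can be read in the Amotl1 window on both strands. Windows were available for 7 of the 9 genes, 9 windows in all, and 5 of these 9 held the motif, in Vgll4, Amotl2, Vgll3 and Tead3. Tead3 had several of these windows, and those at chr17:28350806-28351055 and chr17:28350601-28350850 overlap, so the windows are not independent. Of all 32851 windows of this length, 12.6% held the motif on either strand, with no other motif searched and no matching for base composition. A match is a run of letters and was not tested as a binding site.

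Totals were 5361250 to 7971443 reads per WT IntSC library and 6485735 to 8095271 per KO IntSC library. They were 7464241 to 10549233 per WT LEC library and 6900493 to 8914526 per KO LEC library. WT LEC 1, 3 and 4 were deeper than every KO LEC library. Levels are given as CPM, the reads of a gene scaled to a common library size, after TMM scaling over all 18 libraries. The sorted cells matched their labels by their defining markers: Prox1, the master regulator of lymphatic identity, was at 33.25 to 114.3 CPM in LEC libraries and at no more than 0.172 CPM in IntSC libraries. Pdgfrb was at 215.1 to 679.7 CPM in WT IntSCs, at 693.1 to 1187 CPM in KO IntSCs and at no more than 69.16 CPM in LECs. One LEC library stood apart in its stromal markers: WT LEC 1 had a summed level of 2236 CPM for 9 stromal genes, against 643.1 to 683.7 CPM in the other WT LECs. Neither Lats1 nor Lats2 passed edgeR's test between KO and WT libraries of either cell type. Lats1 was at 0 to 30.07 CPM in WT IntSCs and 12.88 to 21.18 CPM in KO IntSCs, and Lats2 at 41.51 to 113.1 and 79.98 to 130.0 CPM. In LECs, Lats1 was at 3.279 to 13.50 CPM in WT and 6.701 to 14.97 CPM in KO, and Lats2 at 72.09 to 143.6 and 13.73 to 126.3 CPM. These counts are per gene and include reads outside the floxed exons, so they do not check the deletion, and KO and WT are used as labels.

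Among the angiomotins, Amotl2 rose in KO IntSCs. The WT IntSC libraries had a lowest, median and highest level of 25.97, 37.78 and 72.24 CPM, and the 5 KO IntSC libraries had 230.3, 147.6, 189.6, 199.5 and 198.4 CPM. Every KO library lay above every WT library, with no overlap. Mean Amotl2 was 45.50 ± 18.02 CPM (SD, n = 6) in WT and 193.1 ± 29.73 CPM (SD, n = 5) in KO IntSCs. In the edgeR fit Amotl2 differed by 2.09 ± 0.24 (SE) on the log2 scale, which is 4.25-fold, with an adjusted p of 8.98e-05 in edgeR's quasi-likelihood test. By this test 1.47% of the 12421 genes tested changed in either direction, and of the 8 members tested Amotl2 was the 1 that did. The exact permutation test over libraries gave p = 0.00433, the smallest that the 462 arrangements allow, and 0.153 after adjustment over all genes. When all 4 groups shared a single estimate of spread, the log2 fold change was 2.08 and the adjusted p 0.344, where the alternatives ranged from 1.13e-12 to 0.344. In bulk libraries, fewer cells of a type and less RNA per cell cannot be told apart.

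Amotl1, the most abundant angiomotin in every library by reads, had lower values in KO IntSCs. Its WT IntSC libraries had a lowest, median and highest level of 511.1, 673.0 and 866.0 CPM, and the KO IntSC libraries had 462.2, 494.0, 403.8, 431.3 and 461.9 CPM. All 5 KO libraries lay below all 6 WT libraries, and the KO values were close together. The log2 fold change of Amotl1 was -0.59 ± 0.16 (SE), with an unadjusted p of 0.00152 and an adjusted p of 0.0778 in edgeR's test, which missed the threshold of 0.05. The adjusted p was 0.0305 without WT IntSC 6, the library with the lowest WT level, and 0.00837 in DESeq2, in a range of 0.00837 to 0.249 over the alternatives. The exact permutation p was 0.00433 before and 0.153 after adjustment. Groups did not overlap for 2.83% of the genes tested in this comparison, and for 2 of the 8 members tested, Amotl1 and Amotl2.

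The balance of Amotl1 and Amotl2 in IntSCs differed between genotypes. There were 10.1 to 33.3 Amotl1 reads per Amotl2 read in WT IntSCs and 2.01 to 3.35 in KO IntSCs. The log2 ratio of Amotl2 to Amotl1 was -3.96 ± 0.61 (SD, n = 6) in WT and -1.23 ± 0.29 (SD, n = 5) in KO, a difference of 2.73 (exact permutation p = 0.00433). Both ratios come from the same reads as the comparisons of each gene above. Per kilobase of the longest annotated transcript, Amotl2 made up 11.8% ± 3.8 (SD) of the summed angiomotin level in WT IntSCs and 45.4% ± 4.7 (SD) in KO IntSCs. On the same scale, Amotl1 made up 86.7% ± 4.1 (SD) and 52.7% ± 5.2 (SD). Per kilobase, Amotl2 was the largest of the 3 in 1 of 5 KO libraries and in none of 6 WT libraries, whereas by reads Amotl1 was the largest in each. The shares per kilobase assume reads over whole transcripts, which the sources used here do not settle. The summed CPM of the 3 genes was 732 ± 127 (SD) in WT and 657 ± 35 (SD) in KO, and the ranges of 556.4 to 898.5 and 607.7 to 702.8 overlapped.

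**Figure D1:**
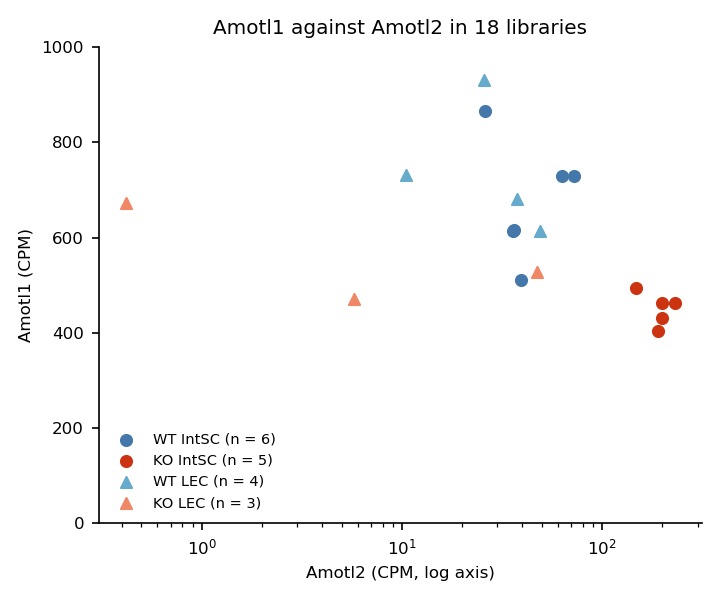
Amotl1 level (y axis, CPM) against Amotl2 level (x axis, CPM, log scale), with 1 point per library, circles for IntSCs and triangles for LECs. The 5 KO IntSC libraries lie at 147.6 to 230.3 CPM of Amotl2 and at or below 494.0 CPM of Amotl1, to the right of the other 13 libraries.

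Amot, the founding member of the family, was at 5.051 to 14.09 CPM in WT IntSCs with a median of 7.318 CPM. The KO IntSC libraries had 10.20, 5.067, 14.28, 21.32 and 12.75 CPM, which overlapped the WT range. Its log2 fold change was 0.52 ± 0.57 (SE), with an adjusted p of 0.90 in edgeR. Summed markers of blood endothelial, stromal, smooth muscle and pericyte cells had WT and KO ranges that overlapped in IntSCs. The summed level of 5 blood endothelial genes was 1319 to 2940 CPM in WT and 1048 to 1798 CPM in KO IntSCs, and that of 9 stromal genes was 12080 to 17330 and 8003 to 13150 CPM. The 6 smooth muscle genes summed to 1037 to 1801 CPM in WT and 1252 to 2336 CPM in KO. For 5 pericyte genes the sums were 267.2 to 511.6 CPM in WT and 250.7 to 515.5 CPM in KO. None of the genes in these lists was at 0 throughout a group, and their part in the angiomotin levels was not tested.

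**Figure D2:**
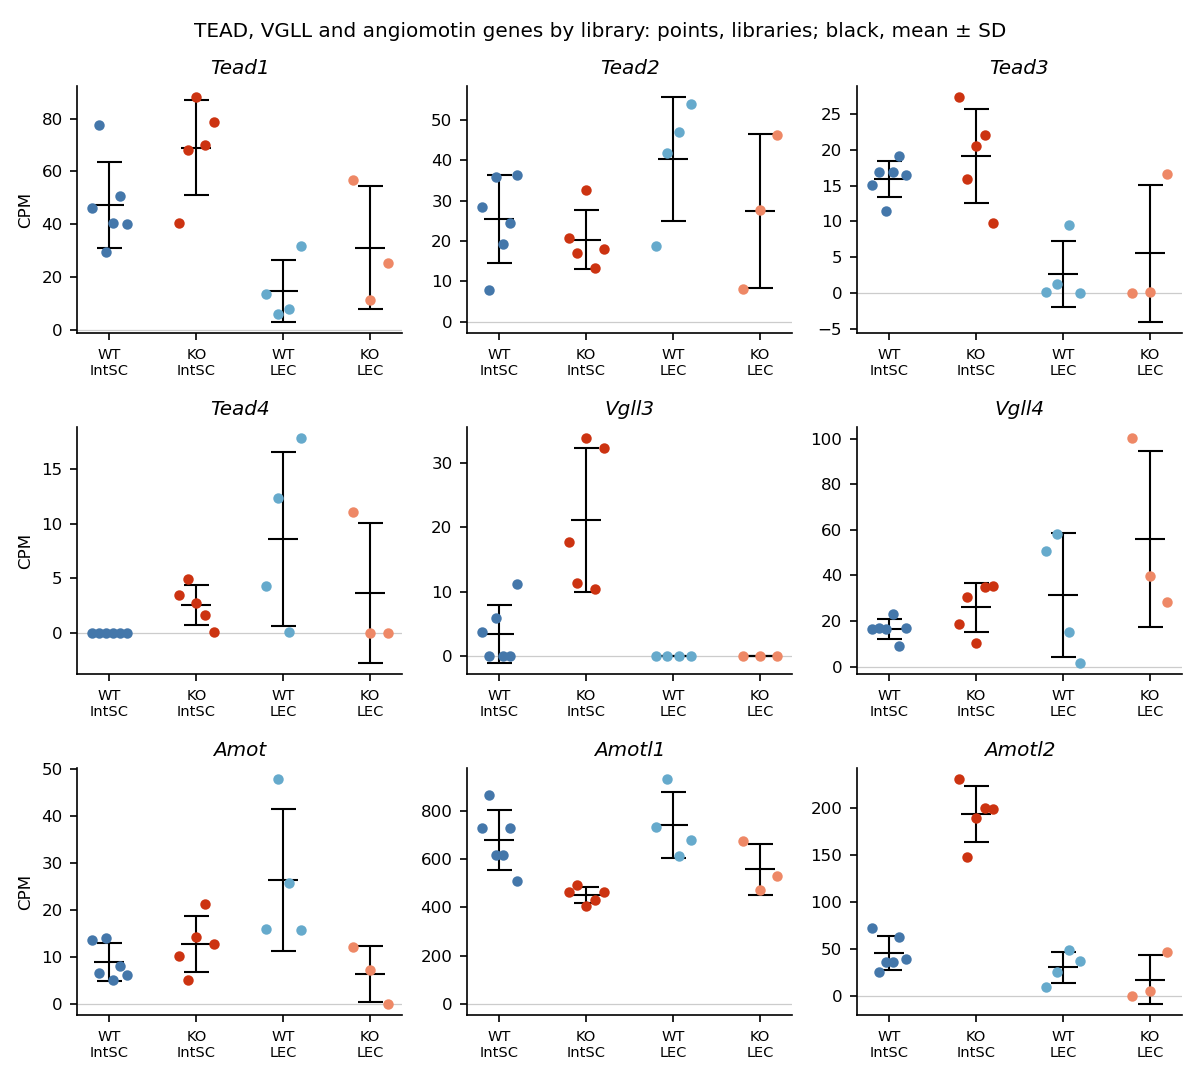
Level of each gene (y axes, CPM, a separate scale per panel) in the 4 groups. Coloured points are libraries, and the black bars give the mean and SD. The KO IntSC points of Amotl2 lie above all WT IntSC points, those of Amotl1 lie below, and Vgll3 is at 0 in all 7 LEC libraries.

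Of the TEAD genes, Tead4 was the 1 whose IntSC groups did not overlap. It had 0 reads in all 6 WT IntSC libraries and 27, 36, 23, 11 and 1 reads in the KO IntSC libraries, which is 3.53, 4.93, 2.76, 1.64 and 0.133 CPM. KO IntSC 5 rested on that single read, under the 3 reads taken as the floor. Set against the 3 reads that a count of 0 allows over the pooled WT total, the pooled KO level was at least 34.4-fold higher. These counts were below the filter of the edgeR test, so the gene has no adjusted p in the planned comparison. In edgeR its adjusted p was 0.103 without the filter and 0.274 with all 4 groups in the same fit. The exact permutation p for this gene alone was 0.00433. The summed level of 10 LEC genes was 74.08 to 158.1 CPM in WT IntSCs and 146.6 to 253.2 CPM in KO IntSCs, and these ranges overlapped. These sums are 0.571% to 1.22% and 1.13% to 1.95% of their mean in LECs. The defining LEC gene Prox1 was at no more than 0.149 CPM in KO IntSCs. The 4 Paneth cell genes, markers of epithelial cells of the crypt base, summed to 0.152 to 6.32 CPM in WT, with 1 of them at 0 throughout, and 24.9 to 57.0 CPM in KO IntSCs. The 7 epithelial genes summed to 0.172 to 113.1 CPM in WT, with 2 at 0 throughout, and 20.53 to 117.1 CPM in KO, and the part of these cells in the Tead4 reads was not tested.

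Tead1, Tead2 and Tead3 were read in every IntSC library and none passed the test. Tead1, the broadly expressed TEAD of muscle and stroma, had a lowest, median and highest WT IntSC level of 29.39, 43.24 and 77.40 CPM. Its KO IntSC libraries had 40.42, 67.93, 88.09, 69.79 and 78.75 CPM, of which 2 lay above all WT libraries. Tead1 had a log2 fold change of 0.54 ± 0.27 (SE), with an adjusted p of 0.526 in edgeR. Tead2 had WT levels of 7.912 to 36.45 CPM with a median of 26.42 CPM, and KO levels of 20.67, 16.98, 32.64, 13.42 and 18.06 CPM, all inside the WT range. Tead3 had WT levels of 11.51 to 19.07 CPM with a median of 16.63 CPM, and KO levels of 27.34, 15.89, 20.52, 22.07 and 9.827 CPM on both sides of that range. Their log2 fold changes were -0.32 ± 0.40 (SE) and 0.27 ± 0.40 (SE), with adjusted p of 0.915 and 0.938 in edgeR.

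Which TEAD came first in IntSCs depended on the scale. By CPM, Tead1 was the highest of the 4 in 5 of 6 WT and 5 of 5 KO libraries. Per kilobase of the longest annotated transcript, which is 9.964 kilobases for Tead1 and 3.396 for Tead2, Tead2 was the highest in 5 of 6 WT libraries. On that scale the first place in KO IntSCs went to Tead1 in 3 libraries, to Tead2 in 1 and to Tead3 in 1. The sources used here do not settle whether the reads cover whole transcripts or their 3′ ends, and the second would make CPM the scale to compare. The summed CPM of the 4 TEAD genes was 88.7 ± 10.2 (SD, n = 6) in WT and 111.1 ± 19.5 (SD, n = 5) in KO IntSCs. The ranges of 76.6 to 102.2 in WT and 91.95 to 144 in KO overlapped, and the difference was not tested.

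**Figure D3:**
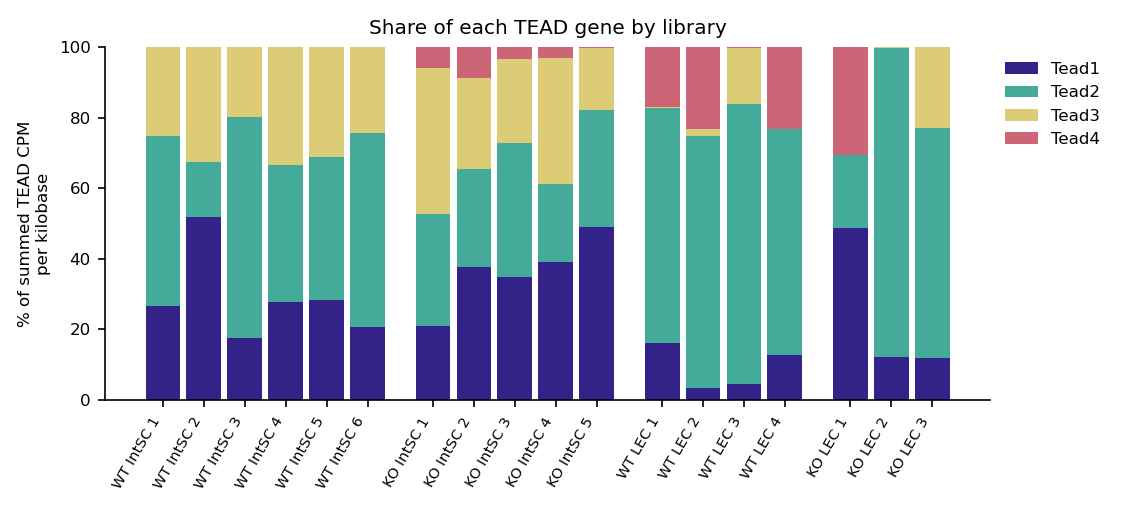
Share of Tead1, Tead2, Tead3 and Tead4 (y axis, % of their summed CPM per kilobase) in each of the 18 libraries. The WT IntSC bars hold no Tead4, and Tead2 fills 63.9% to 79.4% of the WT LEC bars.

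Vgll3, a TEAD cofactor known from fibroblasts and muscle, was read in all KO IntSCs and in some WT IntSCs. WT IntSC 2, 4 and 5 had 0 reads, and WT IntSC 1, 3 and 6 had 3.80, 5.96 and 11.17 CPM. The KO IntSC libraries had 17.79, 11.37, 33.84, 10.44 and 32.27 CPM. The groups overlapped, since WT IntSC 6 lay above KO IntSC 4. The log2 fold change of Vgll3 was 2.59 ± 1.04 (SE), with an unadjusted p of 0.0221 and an adjusted p of 0.353 in edgeR. Its exact permutation p was 0.00866, and 0.194 after adjustment. limma-voom gave a log2 fold change of 4.83 with an adjusted p of 0.0602, the lowest over the alternatives.

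Vgll4, the YAP competitor, had WT IntSC levels of 9.275 to 22.90 CPM with a median of 16.72 CPM. Its KO IntSC libraries had 18.83, 30.54, 10.56, 34.75 and 35.32 CPM. KO IntSC 2, 4 and 5 lay above the WT range and the other 2 inside it. The log2 fold change of Vgll4 was 0.65 ± 0.40 (SE), with an adjusted p of 0.667 in edgeR. The remaining family members, Vgll1 and Vgll2, had 0 reads in all 18 libraries. Over the 8 members tested in IntSCs, 6 log2 fold changes were above 0 and their median was 0.53, beside a median of 0.0026 over all genes tested.

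**Figure D4:**
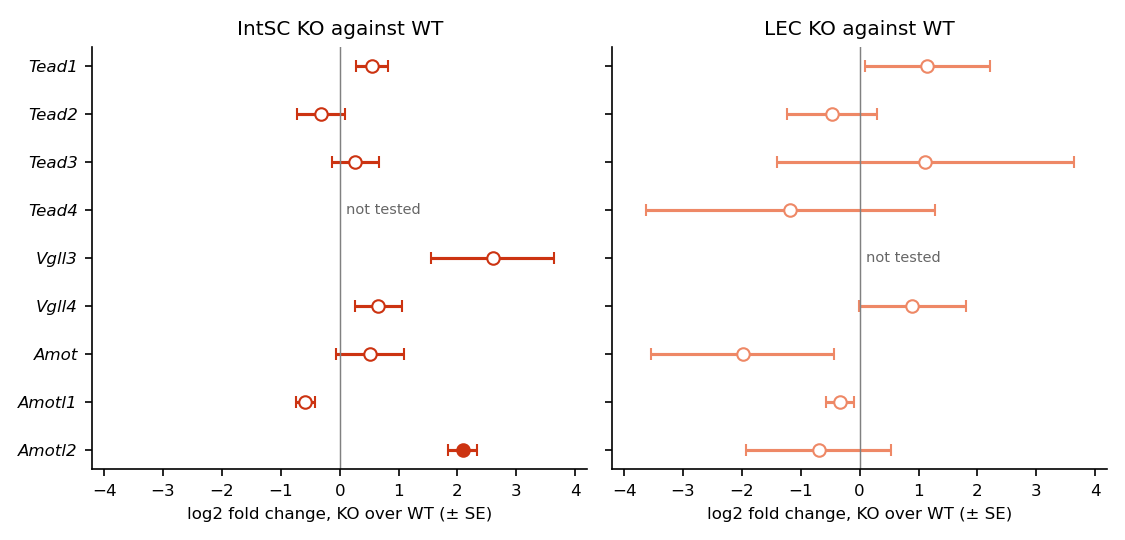
Log2 fold change of KO over WT (x axis) with its SE for each gene, in IntSCs (left) and in LECs (right). The filled point marks the gene past the adjusted p threshold in edgeR, Amotl2 in IntSCs at 2.09, and "not tested" marks a gene under the count filter.

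In LECs, no member passed the test between KO and WT libraries. edgeR called 0.0658% of the 10639 genes tested, and of the 8 members tested 0 were called and 0 had an unadjusted p under 0.05, with adjusted p of 0.922 or more. DESeq2 and limma-voom called 0 members as well, with no adjusted p for Tead3 in DESeq2. The spread between libraries was wide, with a common biological coefficient of variation of 1.09 in this fit against 0.679 in the IntSC fit. Other measures moved with genotype in LECs. The 4 Paneth cell genes summed to 0 to 0.740 CPM in WT LECs, with 2 of them at 0 throughout, and to 11.77 to 62.04 CPM in KO LECs. The 9 stromal genes summed to 643.1 to 2236 CPM in WT LECs and 320.1 to 538.9 CPM in KO LECs, and 11778 ± 244 genes (SD, n = 4) were detected per WT LEC library against 10725 ± 239 (SD, n = 3) per KO LEC library. The part of these in the LEC values of the members was not tested.

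Amot had the 1 LEC contrast whose groups did not overlap, as they did not for 9.93% of all genes tested. The 4 WT LEC libraries had 15.89, 47.88, 25.76 and 15.80 CPM and the 3 KO LEC libraries had 12.01, 7.12 and 0 CPM. Its log2 fold change was -1.99 ± 1.55 (SE), and the exact permutation p was 0.0571, the smallest that 4 against 3 libraries allow. Amotl2 had 10.46, 25.79, 49.00 and 37.60 CPM in WT LECs and 0.419, 5.78 and 47.40 CPM in KO LECs. KO LEC 1 rested on 3 reads of Amotl2, whereas KO LEC 3 lay inside the WT range. Amotl2 differed by -0.70 ± 1.23 (SE) on the log2 scale. Amotl1 had 732.3, 931.0, 614.3 and 680.8 CPM in WT LECs and 673.3, 470.4 and 528.7 CPM in KO LECs. KO LEC 2 and 3 lay below all WT LECs, and the log2 fold change was -0.34 ± 0.24 (SE). The log2 ratio of Amotl2 to Amotl1 differed by -1.97 between KO and WT LECs, with an exact permutation p of 0.40.

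The TEAD genes varied widely between LEC libraries of the same group, and none passed the test. Tead1 had 13.41, 5.80, 7.87 and 31.60 CPM in WT LECs and 56.68, 11.36 and 25.06 CPM in KO LECs. Tead2 had 18.65, 41.84, 47.03 and 53.79 CPM in WT LECs and 8.24, 27.77 and 46.28 CPM in KO LECs. For both genes KO LEC 1 was the library outside the WT range, high for Tead1 and low for Tead2. Tead3 had 0.0951, 1.23, 9.56 and 0 CPM in WT LECs and 0, 0.10 and 16.63 CPM in KO LECs, so that WT LEC 3 held 102 of the 113 WT reads and KO LEC 3 held 134 of the 135 KO reads. Tead4 had 45, 100, 1 and 178 reads in the 4 WT LECs and 79, 0 and 0 reads in the KO LECs. In CPM, Tead4 averaged 8.63 ± 7.95 (SD, n = 4) in WT LECs and 3.68 ± 6.37 (SD, n = 3) in KO LECs. Every WT LEC library thus had at least 1 Tead4 read, and KO LEC 1 was the 1 KO LEC library with any.

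Vgll4 was at 50.80, 58.00, 14.99 and 1.70 CPM in WT LECs and at 100.2, 39.95 and 28.17 CPM in KO LECs. KO LEC 1 lay above all WT LECs and the other 2 inside their range. On the log2 scale Vgll4 differed by 0.89 ± 0.91 (SE). Vgll3 had 0 reads in all 7 LEC libraries.

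Between the cell types of WT mice, Tead1 was lower in LECs than in IntSCs, at 14.67 ± 11.73 CPM (SD, n = 4) against 47.31 ± 16.36 CPM (SD, n = 6). Its difference was -1.68 ± 0.52 (SE) on the log2 scale, with an adjusted p of 0.0300 in edgeR, which called 22.6% of the 12203 genes tested. Of the 7 members tested Tead1 was the 1 called, and WT LEC 4, at 31.60 CPM, overlapped the IntSC range. The call did not hold without WT IntSC 1, 2 or 5, with adjusted p of 0.0538, 0.0698 and 0.0552. It did not hold either without WT LEC 1, 2 or 3, with adjusted p of 0.0602, 0.0583 and 0.0755, in a range of 0.00375 to 0.101 over all alternatives. The exact permutation p of Tead1 was 0.019, and 0.0733 after adjustment over all genes.

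The WT groups did not overlap for 2 of the 7 members tested, Tead3 and Amot, beside 21.1% of all genes tested. Tead3 was at 2.72 ± 4.59 CPM (SD, n = 4) in WT LECs, below all IntSCs at 15.96 ± 2.53 CPM (SD, n = 6), with an edgeR adjusted p of 0.192. Amot was higher in all 4 WT LECs, with a log2 fold change of 1.56 ± 0.63 (SE) and an edgeR adjusted p of 0.0938. For both genes the exact permutation p was 0.00952, the smallest that 6 against 4 libraries allow, and 0.0452 after adjustment over all genes. Tead4 had reads in 4 of 4 WT LECs and 0 of 6 WT IntSCs. It was under the filter of the planned test, and its adjusted p in edgeR was 0.00929 with no filter and 0.00743 with all 4 groups in the same fit. Pooled over libraries, Vgll3 was at least 39.9-fold lower in WT LECs than in WT IntSCs, although 3 of the 6 WT IntSC libraries had 0 reads too. Vgll3 was also under the filter of the planned test, and its exact permutation p was 0.333. Its adjusted p in edgeR was 0.067 with no filter, 0.069 with a mean count of at least 10 and 0.016 with all 4 groups in the same fit. Per kilobase, Tead2 made up 70.3% ± 6.8 (SD, n = 4) of the TEAD level in WT LECs and was the highest of the 4 TEAD genes in each, by CPM as well.

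Between KO LECs and KO IntSCs, Amotl2 and Vgll3 were lower in LECs. The log2 fold change of Amotl2 was -3.44 ± 1.02 (SE), with an adjusted p of 0.0319 in edgeR, which called 25.9% of the 12758 genes tested. The call was lost without any 1 of the 5 KO IntSC libraries, with adjusted p of 0.0606, 0.0510, 0.0563, 0.0599 and 0.0566 for KO IntSC 1 to 5, and without KO LEC 2, with 0.0769, in a range of 0.000757 to 0.0925 over all alternatives. Vgll3 was at least 167-fold lower in KO LECs, with an adjusted p of 0.00189 in edgeR and a range of 4.3e-11 to 0.107 over the alternatives. Amotl2 and Vgll3 were also the 2 of 9 members whose groups did not overlap, beside 32.3% of all genes tested. For both, the exact permutation p was 0.0357, the smallest possible here, and 0.111 after adjustment over all genes. In WT mice the Amotl2 difference between cell types was -0.56 ± 0.46 (SE) on the log2 scale, with an edgeR adjusted p of 0.458.

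Across the 4 groups, the Amotl2 level was highest in KO IntSCs, and its ranges in WT IntSCs, WT LECs and KO LECs overlapped each other. The order by mean CPM was KO IntSC at 193.1, WT IntSC at 45.50, WT LEC at 30.71 and KO LEC at 17.87. For Amotl1 the order was WT LEC at 739.6, WT IntSC at 678.0, KO LEC at 557.5 and KO IntSC at 450.6, and each overlapped its neighbour in that order. Per kilobase, Amotl1 was the most abundant member in every group, at 75.7 ± 13.8 (SD) CPM per kilobase in WT IntSCs and 50.3 ± 3.8 (SD) in KO IntSCs. Its coefficient of variation between libraries was the lowest of the members in KO IntSCs, at 0.0761, in WT LECs, at 0.184, and in KO LECs, at 0.187. In WT IntSCs it was 0.182, above the 0.159 of Tead3.

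The difference of the differences, KO against WT in IntSCs minus the same in LECs, passed the test for none of the members in edgeR, DESeq2 or limma-voom, while edgeR called 1.7% of the 14015 genes tested. For Amotl2 it was 2.87 ± 1.05 (SE) on the log2 scale, with an unadjusted p of 0.0137 and an adjusted p of 0.177. Without KO LEC 3, the KO LEC library with a WT-like Amotl2 level, it was 5.37 with an adjusted p of 0.000898, and over all alternatives the adjusted p reached 0.746. For Tead4 the adjusted p was 0.16, and over the alternatives it ranged from 0.0455, without KO LEC 1, to 0.707. Of the 9 members in this fit, 2 had an unadjusted p under 0.05, Amotl2 and Tead4. Vgll3 has no usable estimate here, because it was at 0 in all LECs.

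Pathway lists around the members were read beside the 1.47% of all genes called in IntSCs. Of the 17 tested genes of the Hippo cascade, edgeR called 0, with 2 at an unadjusted p under 0.05, and DESeq2 and limma-voom also called 0. Yap1 was at 138.3 ± 35.3 CPM (SD, n = 6) in WT and 106.0 ± 21.3 CPM (SD, n = 5) in KO IntSCs, with an adjusted p of 0.607. Wwtr1, which encodes TAZ, was at 99.3 ± 33.2 and 96.7 ± 28.8 CPM, with an adjusted p of 0.987 in edgeR. Lats2, itself a YAP target, had a log2 fold change of 0.65 ± 0.23 (SE) and an adjusted p of 0.252, and Lats1 had -0.12 ± 0.67 (SE) and 0.987, both in edgeR. Of the 20 tested YAP and TAZ targets, edgeR called 1, Crim1, a transmembrane protein that binds growth factors, which rose. It went from 102.3 ± 27.4 CPM (SD, n = 6) to 294.3 ± 47.6 CPM (SD, n = 5), which is 1.52 ± 0.21 (SE) on the log2 scale with an adjusted p of 0.000284 in edgeR. The median over the 20 targets was 0.48, with 15 above 0 and 5 at an unadjusted p under 0.05, and DESeq2 and limma-voom called 2 each. The number of targets called was 3 without KO IntSC 2, 2 without WT IntSC 4 or WT IntSC 6, and 3 with Xist as a covariate. Of the 15 tested junction and ubiquitin ligase partners of the angiomotins, edgeR called 0, with 1 at an unadjusted p under 0.05, and the other tools called 0.

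In LECs edgeR called 0 of 16 cascade genes, 0 of 15 targets and 0 of 15 angiomotin partners, with 1, 2 and 1 at an unadjusted p under 0.05. DESeq2 called 0, 1 and 1 of them, and limma-voom 0 in each list. Between cell types the lists held more calls, beside the 22.6% and 25.9% of all genes. In WT LECs against WT IntSCs, 1 of 16 cascade genes was higher and 3 lower, of 19 targets 2 were higher and 5 lower, and of 16 angiomotin partners 2 were higher and 1 lower. The 3 partner calls fell to 1 without WT IntSC 1 and to 1 without WT IntSC 2, and were 5 in DESeq2. Wwtr1 was the higher cascade gene, by 0.83 ± 0.28 (SE) on the log2 scale with an edgeR adjusted p of 0.0446, and Stk38, Taok3 and Taok1, all kinases, were the lower ones. The targets Ptpn14 and Crim1 were higher, and the 3 most significant lower ones were Arhgef17, Axl and Rbms3. Among the angiomotin partners, Magi1, a scaffold of cell junctions, was higher and the deubiquitinase Usp9x was lower. In KO LECs against KO IntSCs, 4 of 17 cascade genes were lower, namely Wwc2, Stk38, Mob1b and Taok1, and of 20 targets 2 were higher and 7 lower. The 5 targets with the lowest p in edgeR were Axl, Foxf2, Ctgf and Arhgef17, which were lower, and Ptpn14, which was higher. Of 15 angiomotin partners, 1 was higher and 1 lower, and the lower 1 was Mpp5. These 2 partner calls fell to 0 without KO IntSC 2 or KO LEC 1 and to 1 without KO IntSC 1, 3 or 5.

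The genes whose level moved most like each member over the 18 libraries were found by the root mean square difference of log2(CPM + 1), each centred on its mean, among 10734 genes. This is a description over libraries that share cell type and genotype. For Amotl1 they were Cltc, the clathrin heavy chain, at 0.275 and Kdelr1 at 0.281, beside a spread of 0.342 for Amotl1 itself. For Amotl2 they were 4930523C07Rik at 0.846 and Ebf1, a transcription factor, at 0.86, beside a spread of 1.83, and for Amot they were Ppp1r9b at 0.609 and Atg16l1 at 0.705. For Tead1 they were Ptprf at 0.57 and Sept8 at 0.587, for Tead2 4933434E20Rik at 0.46 and Gtf2e2 at 0.51, and for Tead3 Zcchc10 and Hotairm1, each at 0.69. For Tead4 they were Cd93, an endothelial surface protein, at 0.902 and Hif1a at 0.964, beside a spread of 1.49. For Vgll3 they were Hif3a at 1.0 and Lypd1 at 1.03, and for Vgll4 Cox20 at 0.69 and Dnm1l at 0.711.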

How the data were processed

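RNA from sorted IntSCs and LECs of WT and LATS1/2 KO mice was sequenced, and groups came from the sample titles. Per the study's methods the authors mapped reads with TopHat and ran Cufflinks, and the submitters' processing notes list Bowtie2, edgeR and mm10. The counting program and annotation are not given in the sources used here. The authors deposited whole-number read counts per gene symbol, 23282 rows in each of 18 tables. Counts of 35 repeated symbols were summed. The labels name the library kit QuantSeq.

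The main test was the quasi-likelihood F test of edgeR (version 4.0.16, under R 4.3.3) with a robust fit, TMM factors and the filterByExpr filter, and with Benjamini-Hochberg adjustment over all genes tested and a threshold of 0.05. Each fit held the 2 groups compared, and the interaction all 4. The SE of an edgeR log2 fold change is its absolute value divided by the square root of its F statistic. Two-sided exact permutation tests used log2(CPM + 1). Alternatives used DESeq2 1.42.0, limma 3.58.1, other scalings and filters, and each library left out. The edgeR code was tested on simulated data. Kilobase values used the longest GENCODE vM21 transcript. All members are named, with up to 5 called genes per pathway list and comparison in order of p, and always Lats1, Lats2, Yap1 and Wwtr1. A called gene that this rule would name is not reported here. The members and lists were chosen with earlier results of these data known. Intervals and floors from reads cover counting error only, since the reads carry no molecular identifiers, and the 3-read floor was 0.284 to 0.560 CPM per library.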

Additional observations from a re-analysis of the deposited data

Results flagged for a closer look

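Tead3 stood apart in WT LEC 3, at 9.556 CPM against 0 to 1.234 CPM in the other 3 WT LECs. The gap to the next library was 0.871 of the whole range of the group. In all, 25 groups of libraries were examined for the 9 members, of which 1 was set apart this way and 1.25 would be by chance. Without WT LEC 3 the log2 fold change of Tead3 between WT LECs and WT IntSCs was -5.16, with an adjusted p of 0.017 in edgeR, in a range of 0.00859 to 0.275 over the alternatives.

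The KO against WT difference differed between IntSCs and LECs for 3 genes of the pathway lists by edgeR's test of the interaction, which called 1.7% of all genes. They were 2 of 21 YAP and TAZ targets and 1 of 16 angiomotin partners, with 0 of 17 cascade genes. For Ctgf, the matrix-associated YAP target also called Ccn2, the interaction was 5.359 on the log2 scale with an adjusted p of 0.0075, and it kept its call in 28 of 28 alternatives. Its means were 135.1 CPM in WT and 811.5 CPM in KO IntSCs, against 352.5 CPM in WT and 51.58 CPM in KO LECs. For Crim1 the interaction was 1.732 with an adjusted p of 0.0201, and it kept its call in 27 of 28 alternatives, losing it with the replicate block at 0.413. For Usp9x, a deubiquitinase that acts on angiomotins, it was -3.326 with an adjusted p of 0.0445. It kept its call in 13 of 28 alternatives, whose adjusted p ranged from 0.00285 to 0.749. It lost the call without each of WT IntSC 1, 2, 5 and 6, KO IntSC 1 to 5, WT LEC 1 and 4, and KO LEC 3, with adjusted p of up to 0.0983. Its means were 52.39 and 42.20 CPM in WT and KO IntSCs and 10.89 and 88.05 CPM in WT and KO LECs.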

How the results depend on the processing

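The 40 member results were each recomputed under the alternatives, 857 values in all. Of these, 809 kept direction and side of the threshold, 17 lost a call, 11 gained one and 20 turned direction; DESeq2 gave no adjusted p for 3 more. Amotl2 in IntSCs kept its call in 21 of 22. The number of genes called in IntSCs was 183, against 376 in DESeq2, 27 with all 4 groups in a shared fit, and 99 to 186 with a library left out. In LECs it was 7, against 309 in DESeq2, 12 in limma-voom, 32 with no filter, 20 with a mean count of at least 10, 538 with all 4 groups, 11 with Xist as a covariate, 4 with no robust dispersion, and 0 to 16 with a library left out. For the interaction it was 238, against 1054 in DESeq2, 143 in limma-voom, and 161 to 461 with a library left out.

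With the replicate block the calls were 3 in LECs, 122 in IntSCs, 1596 instead of 2763 between WT cell types, 895 instead of 3302 between KO cell types and 16 for the interaction. Of the pairs of libraries with equal replicate number, 0 correlated above 0.1 about their group means. Between WT IntSCs and WT LECs these correlations were 0.022 to 0.038, beside a mean of -0.0055 for unequal numbers. In each of the other comparisons they lay on both sides of 0. Low correlations in groups this small cannot exclude a pairing, so whether the numbers pair libraries was not settled. Under the block the adjusted p was 0.101 for Tead1 between WT cell types, and 0.0925 for Amotl2 and 0.107 for Vgll3 between KO cell types. Between KO cell types the number of calls under the block was 0 instead of 4 in the Hippo cascade, 4 instead of 9 among YAP and TAZ targets and 0 instead of 2 among angiomotin partners. The block turned Tead3 in LECs to -1.56, Tead2 between KO cell types to -0.014, Tead4 between KO cell types to -4.94 and the Tead3 interaction to 1.01.

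The other turns were of results that were not called, and the cause was not tested. Tead3 in LECs was -0.47 with Xist as a covariate and -5.28 to 1.71 with a library left out. Between KO cell types Tead4 was -2.46 in limma-voom, -1.34 with Xist as a covariate and -7.37 to 1.08 with a library left out, and Tead2 was -0.17 to 0.86. Amotl1 between WT cell types was -0.022 to 0.21 with a library left out. Interactions with a library left out were -1.23 to 0.23 for Tead1, -0.20 to 0.85 for Tead2, -3.38 to 5.52 for Tead3, which was 0.16 in limma-voom, and -0.66 to 0.53 for Vgll4. Between KO cell types the adjusted p of Amotl2 was 0.0693 with no filter. Depth limits Tead4 and Vgll3, which had 0 reads in several libraries.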
